A study of Homo sapiens with 12 samples.

Results

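The early response to TGF-β was taken from the 6 of the 12 libraries of WI-38 cells that were harvested at day 1, namely the 3 libraries of untreated flasks (D1) and the 3 libraries of flasks treated with TGF-β (D1+ TGF-β). WI-38 is a line of normal human lung fibroblasts, here used at passages 2 to 3 and grown to confluence in low-glucose medium with 10% fetal bovine serum. D1+ TGF-β cells received 2 ng/mL TGF-β for 1 day, and D1 cells received fresh medium without it. The sources used here do not say whether medium was also changed in the treated flasks, so that effects of TGF-β and of fresh medium cannot be told apart in any day 1 value. All flasks came from the same unmodified line, so that n = 3 flasks of 1 line in each group and the spread is that between flasks, not between donors. RNA had been taken from 5 flasks per group, of which 3 were sequenced, each library on 4 lanes that were summed here. The comparison addresses which genes change early after a short treatment. The other 6 libraries, from flasks kept for 20 days without (D20) or with TGF-β (D20+ TGF-β), were used to estimate the spread and for a comparison of the responses on both days.

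TGF-β is a secreted dimer that is held inactive in the matrix by its latency protein and by LTBPs, and that signals through the paired kinases TGFBR1 and TGFBR2. These phosphorylate SMAD2 and SMAD3, which enter the nucleus with SMAD4 and induce target genes, among them their own inhibitors. In lung fibroblasts the pathway is known for converting cells to myofibroblasts, which assemble actin stress fibres and secrete fibronectin and collagens, and it is studied for its part in pulmonary fibrosis.

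The 6 libraries held between 8674488 and 18286197 counts, and mitochondrial genes took 3.23% to 4.06% of them. Defining fibroblast genes were strongly expressed, with summed levels of 14678.2 to 16882.5 counts per 1000000 counts (cpm) in the D1 flasks and 19501.2 to 20124.5 cpm in the D1+ TGF-β flasks over 12 markers. Markers of other cell types were low: 5 of 8 haematopoietic markers (PTPRC, LYZ, CD3E, AIF1, SPI1), 1 of 8 endothelial (CDH5) and 2 of 10 epithelial markers (KRT5, SFTPC) had no count in the 6 libraries. The summed endothelial markers were 47.2 to 82.7 cpm in D1 and 34.7 to 40.8 cpm in D1+ TGF-β, and the haematopoietic ones 51.8 to 63.0 and 38.4 to 40.1 cpm. The epithelial markers summed to 43.0 to 66.3 and 60.5 to 61.4 cpm, and those of smooth muscle and pericytes to 568 to 648 and 541 to 589 cpm. The part of these levels in the results was not tested. One library stood apart. In D1 replicate 2, 55 tested genes were more than 2 times above both other D1 flasks and 27 were below both by as much, against 1 and 0 in D1 replicate 1 and none in the other 4 day 1 libraries. Of these genes, 19 and 5 were among those called below, and values without this flask are given beside the results that it moved most. Without it the calls over all genes were 978 higher and 902 lower.

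After 1 day of TGF-β, 1271 of the 9490 genes tested (13.4%) passed an adjusted p of 0.01 in edgeR, the threshold used for every call here. They comprised 654 genes that rose (6.89% of those tested) and 617 that fell (6.5%). Most changes were small. The median log2 fold change was 0.59 among the genes that rose and -0.6 among those that fell, 236 and 215 of them changed by less than 0.5 in size, and only 140 (1.48%) and 119 (1.25%) passed 1. Changes past 2 in size were seen for 20 genes that rose and 17 that fell. The genes that rose were the more abundant, with a median level of 67.0 cpm over the 6 flasks against 36.9 cpm. The flasks of the groups did not overlap in 1270 of the 1271 called genes, against 36.4% of all genes tested. The balance between directions depended on scaling: with TMM factors 51.5% of the calls were higher and the median over all genes was -0.02, whereas without a composition factor there were 500 higher and 931 lower calls (34.9% higher) and the median was -0.079. One abundant gene moved with the treatment: FN1 took 0.973% of all counts in D1 and 2.36% in D1+ TGF-β.

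**Figure D1:**
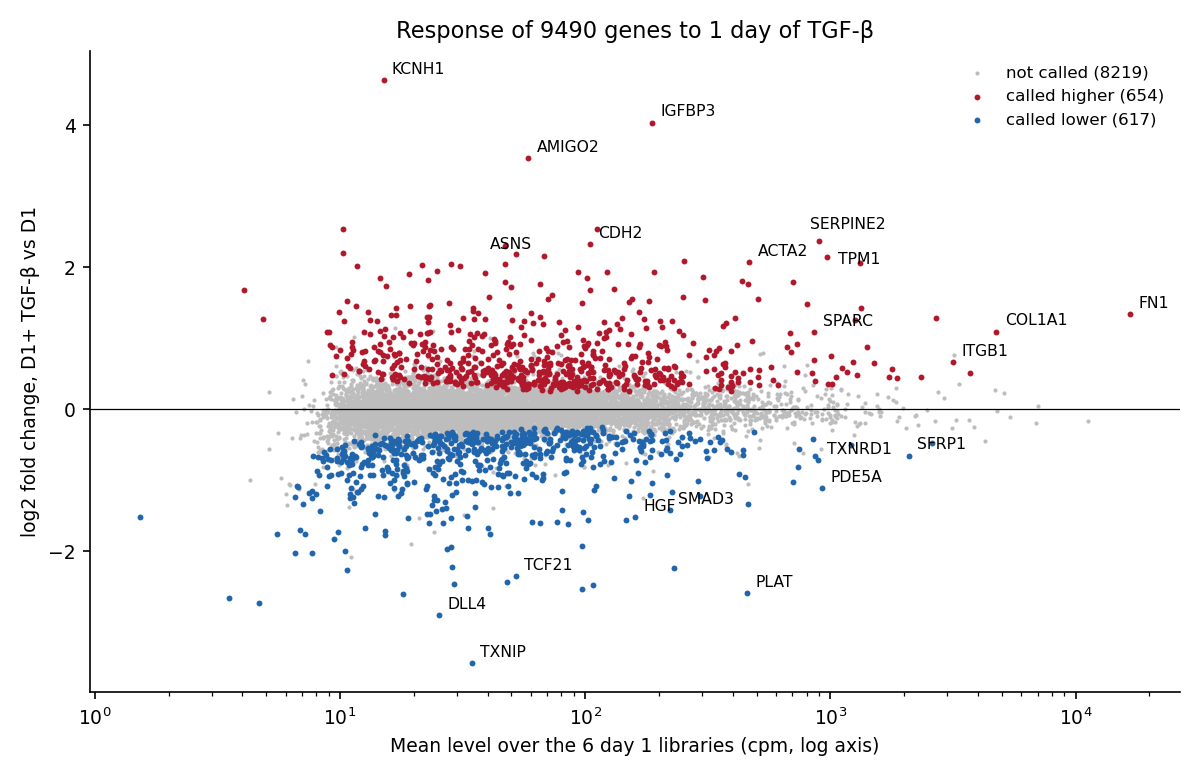
Each point is 1 of the 9490 genes tested. The x axis is the mean level over the 6 day 1 libraries in cpm on a log axis and the y axis the log2 fold change of D1+ TGF-β against D1. Red points mark the 654 genes called higher, blue points the 617 called lower and grey points the remainder; the largest changes lie among genes under about 200 cpm, while FN1 and COL1A1 stand at the abundant end.

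The widest changes were in genes of diverse functions. KCNH1, which encodes a voltage-gated potassium channel (chr1:210850165-211307507, hg19), stood at 1.94, 0.849 and 0.753 cpm in D1 and 29.4, 29.1 and 28.3 cpm in D1+ TGF-β. All treated flasks lay far above all untreated ones (log2 fold change 4.64 ± 0.19, adjusted p = 8.73e-09). IGFBP3, a carrier of insulin-like growth factors (chr7:45951844-45961473, hg19), was at 26.2, 12.7 and 26.3 cpm in the untreated and 335, 425 and 296 cpm in the treated flasks, and AMIGO2, an adhesion protein with leucine-rich repeats, at 7.18, 10.6 and 10 cpm in the D1 flasks and 113, 108 and 102 cpm in the D1+ TGF-β flasks. The groups were again far apart, with log2 fold changes of 4.04 ± 0.22 (adjusted p = 6.32e-08) and 3.53 ± 0.24 (adjusted p = 3.1e-07). The kinase gene NUAK1 rose from 17.6, 20.2 and 18.7 to 84.2, 89.4 and 82.9 cpm (log2 fold change 2.18 ± 0.09, adjusted p = 7.95e-09), with little spread in either group. SPOCK1, a secreted proteoglycan of the testican family, rose from 14.9, 18.6 and 14 to 76.5, 81.5 and 76.7 cpm (log2 fold change 2.30 ± 0.10, adjusted p = 8.73e-09). SIK1, a salt-inducible kinase, was lower in abundance, at 2.96, 5.61 and 2.17 cpm in D1 and 17.9, 17.4 and 15.8 cpm in D1+ TGF-β, and rose by 2.20 ± 0.22 on the log2 scale (adjusted p = 1.46e-05). KCNH1, SIK1 and, below, FZD8 reached 10 cpm only in flasks treated with TGF-β. They passed the filter of 10 cpm in 6 of the 12 libraries through these flasks alone. As they had to differ to be tested, their values are a description.

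Among the genes that fell, TXNIP, an arrestin-like protein that binds thioredoxin and limits glucose uptake (chr1:145438490-145442635, hg19), showed the largest change of those tested. Its levels were 69.7, 58.0 and 63.1 cpm in the untreated and 5.92, 4.90 and 5.36 cpm in the treated flasks, without overlap (log2 fold change -3.58 ± 0.18, adjusted p = 2.97e-08). NPTX1, a secreted pentraxin, was at 201, 151 and 192 cpm in the D1 flasks and 31.6, 26.6 and 40.9 cpm in the D1+ TGF-β flasks (log2 fold change -2.47 ± 0.16, adjusted p = 2.16e-07). HSD17B2, which oxidizes oestradiol and testosterone, was at 31.2, 38.3 and 23.6 cpm in D1 and 4.76, 4.96 and 5.71 cpm in D1+ TGF-β (log2 fold change -2.60 ± 0.30, adjusted p = 3.7e-05). All 3 genes were lower in every treated flask than in any untreated one. GPRC5A, an orphan receptor, and ANKRD33B fell by 1.97 and 2.26 on the log2 scale (adjusted p = 5.94e-06 and 1.04e-07). TXNIP and ANKRD33B reached 10 cpm only in untreated flasks and passed the filter through these alone, so that their values are likewise a description. TBXAS1, thromboxane synthase, was at 41.6, 70.3 and 29.3 cpm in the untreated and 9.52, 9.31 and 12.1 cpm in the treated flasks (log2 fold change -2.22 ± 0.34, adjusted p = 0.000419), and RASL12, a small GTPase whose counts may include reads of SLC51B on the opposite strand, fell from 8.70, 3.46 and 6.11 to 0.929, 0.947 and 0.932 cpm (log2 fold change -2.65 ± 0.36, adjusted p = 0.000149).

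Several of the large falls leaned on D1 replicate 2. SOCS2, an inhibitor of cytokine receptor signaling, was at 22.5, 94.3 and 30.8 cpm in the D1 flasks and 9.64, 9.42 and 7.69 cpm in the treated ones. It reached 10 cpm only in untreated flasks and passed the filter through these alone, so that its values are likewise a description. The second D1 flask was high, yet the other two also lay above all treated flasks (log2 fold change -2.47 ± 0.42, adjusted p = 0.000915; -1.56 without D1 replicate 2). The same shape was seen in FAM65C, with 73.6, 373 and 49.8 cpm in the D1 flasks and 25.4, 29.3 and 31.4 cpm in the D1+ TGF-β flasks. Its log2 fold change of -2.53 ± 0.58 (adjusted p = 0.00619) became -1.09 without that flask, and its call was lost when any one of the D1+ TGF-β libraries or D20 replicate 2 was left out (adjusted p up to 0.0324), and in limma-voom on 12 libraries (0.027), with the deposited log2 values (0.0193) and with the 6 day 1 libraries alone (0.0181). CEMIP, a hyaluronan-degrading protein, was at 46.4, 171 and 24.6 cpm in D1 and 17.7, 13.8 and 14 cpm in D1+ TGF-β. It fell by 2.44 (adjusted p = 0.00518), by 1.24 without D1 replicate 2, and not by the threshold when any D1+ TGF-β library was left out (adjusted p up to 0.0321), nor in limma-voom on 12 libraries, with the deposited log2 values or with the 6 day 1 libraries alone (0.0263, 0.0126 and 0.0156). The remaining falls named here did not lean on D1 replicate 2. ADAMTS9, ARHGAP28 and SLC7A14 fell by 2.73, 2.03 and 2.00 (adjusted p = 0.00255, 0.000925 and 0.00189). Without D1+ TGF-β replicate 2 their adjusted p were 0.0248, 0.0102 and 0.0131; ADAMTS9 also missed the threshold without D1+ TGF-β replicate 1 (0.0129) and SLC7A14 without D1 replicate 1 (0.0111) and in limma-voom on 12 libraries (0.0128). CCDC102B, a coiled-coil protein, fell from 9.62, 13.1 and 9.03 to 2.44, 3.01 and 2.10 cpm (log2 fold change -2.03 ± 0.34, adjusted p = 0.000832). ADAMTS9 fell by 2.41 without D1 replicate 2 (adjusted p = 0.00858 in edgeR). In SLC7A14 that flask was the lowest of D1 (23.7, 6.14 and 20.7 cpm). Over all alternatives the log2 fold change was -2.14 to -1.86 for ARHGAP28 and -2.23 to -1.82 for CCDC102B.

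The genes were also described in 31 lists written by function, which were chosen with earlier results of these libraries known and therefore receive no test of their own. Each is given by its number of tested members called and its median, to be read against 6.89% higher, 6.5% lower and a median of -0.02 over all genes tested. List members named below with a log2 fold change alone were picked after their values were seen.

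**Figure D2:**
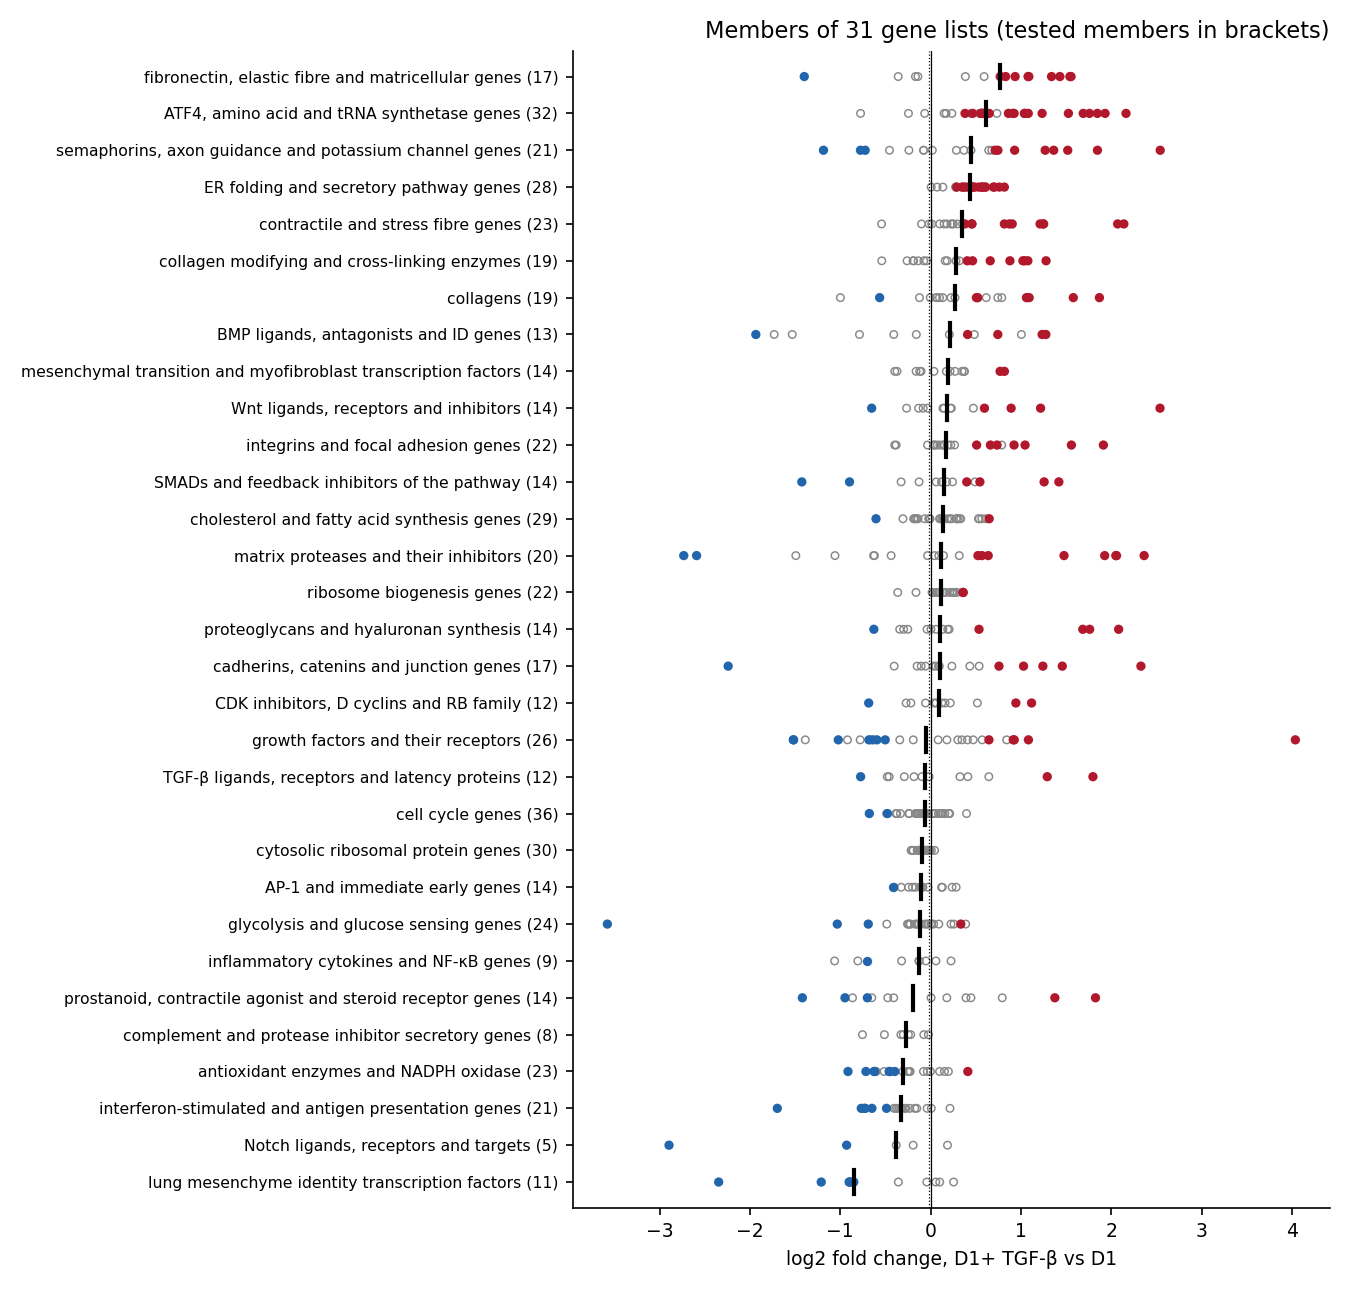
Each row is 1 of the 31 gene lists, with the number of tested members in brackets and rows ordered by median. Points are single genes at their log2 fold change of D1+ TGF-β against D1 (x axis), red for called higher, blue for called lower and open grey for not called; black bars mark list medians and the dotted line the median of all genes tested. The ATF4 and ER folding lists hold 22 of 32 and 18 of 28 members called higher and none lower, and the lung transcription factors 6 of 11 called lower and none higher.

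Many genes of the extracellular matrix rose. Of 17 tested genes of fibronectin, elastic fibres and matricellular proteins, 9 rose and 1 fell, with a median of 0.77 (1.0 without D1 replicate 2). FN1 (chr2:216225163-216300796, hg19), the most abundant gene to rise, was at 11230.2, 8982 and 8183 cpm in the untreated and 23759, 24587 and 23450.0 cpm in the treated flasks (log2 fold change 1.34 ± 0.13, adjusted p = 1.05e-05), so that its lowest treated flask was more than 2 times its highest untreated one. THBS2, a matricellular thrombospondin, rose from 40.9, 33.6 and 32.7 to 102, 108 and 104 cpm (log2 fold change 1.55 ± 0.10, adjusted p = 2.01e-07). SPARC, a collagen-binding glycoprotein, was at 573, 556 and 520.3 cpm in the D1 flasks and 1129, 1225 and 1148 cpm in the D1+ TGF-β flasks (log2 fold change 1.09 ± 0.07, adjusted p = 3.16e-07). FBLN5, which organizes elastic fibres, rose by 0.94 ± 0.07 (adjusted p = 1.06e-06), and FBN1, TNC, POSTN, MFAP2 and CYR61 rose by 1.08, 1.43, 1.54, 0.77 and 0.83. CTGF and THBS1, both known as targets of the pathway, had log2 fold changes of 0.77 and 0.77 that missed the threshold (adjusted p = 0.0151 and 0.0375), and without D1 replicate 2 both were called (1.22 and 1.29, adjusted p = 2.99e-08 and 6.85e-06). The member that fell was NOV, a CCN family protein, from 35.8, 36.3 and 41.4 to 14.1, 12.7 and 16.8 cpm (log2 fold change -1.40 ± 0.10, adjusted p = 7.64e-07).

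Of 19 collagen genes tested, 6 rose and 1 fell (median 0.27; 8 and 1 without D1 replicate 2, median 0.41). COL1A1 (chr17:48261462-48278993, hg19), a chain of the major fibrillar collagen, was at 3631, 2973 and 2504 cpm in D1 and 6295, 6392 and 6708 cpm in D1+ TGF-β (log2 fold change 1.09 ± 0.12, adjusted p = 2.5e-05). COL5A1, a chain of the collagen V that starts such fibrils, had a larger log2 fold change, with 141, 142 and 106 cpm in the untreated and 460.4, 481 and 478 cpm in the treated flasks (log2 fold change 1.87 ± 0.13, adjusted p = 4.69e-07). In both genes the 3 treated flasks lay close together and far above the untreated ones. COL7A1 and COL11A1 rose by 1.58 and 1.06, whereas COL18A1, a basement membrane collagen, fell by 0.56 (adjusted p = 0.00165, and up to 0.0132 without D1+ TGF-β replicate 1 or 2). COL1A2, the partner chain of COL1A1, went from 3664, 2909 and 2617 to 4218, 4307 and 4532 cpm. Its adjusted p of 0.00578 (log2 fold change 0.51 ± 0.11) rose past the threshold without D1 replicate 3, any one of the D1+ TGF-β libraries or D20 replicate 2, to at most 0.0243. COL3A1, COL6A1, COL6A2 and COL12A1 were not called, with log2 fold changes between 0.06 and 0.23. COL4A1, COL4A2 and COL8A1 (0.79, 0.62 and 0.74) were called only without D1 replicate 2. There they rose by 1.40, 0.98 and 0.94 (adjusted p = 0.000166, 0.000667 and 0.00572 in edgeR). The rise of COL16A1 (0.52, adjusted p = 0.009) was not called without that flask (0.41, adjusted p = 0.0168).

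Among enzymes that hydroxylate, fold and cross-link collagen, 8 of 19 were called higher and 0 lower, and 12 of the 19 log2 fold changes were above 0 (median 0.28, from 0.139 to 0.392 when single D1 flasks were left out). LOX, which starts the cross-links of collagen and elastin, was at 241, 230.4 and 243 cpm in the D1 flasks and 547, 625 and 559 cpm in the D1+ TGF-β flasks (log2 fold change 1.28 ± 0.09, adjusted p = 3.87e-07). P4HA2 and P4HA1, the catalytic chains of prolyl 4-hydroxylase, rose by 1.08 ± 0.07 and 0.88 ± 0.11 (adjusted p = 3.16e-07 and 7.58e-05). PLOD2, which hydroxylates telopeptide lysines, rose from 144, 190.2 and 156 to 331, 336 and 344 cpm (log2 fold change 1.04 ± 0.13, adjusted p = 9.9e-05). LOXL4, P3H1 and PPIB rose by 1.02, 0.66 and 0.41, while the related oxidases LOXL1, LOXL2 and LOXL3 were not called (-0.05, 0.16 and -0.26).

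Among 14 proteoglycan and hyaluronan genes, 4 rose and 1 fell. XYLT1, the xylosyltransferase that starts glycosaminoglycan chains, had the largest change of them, at 93.8, 111 and 83.8 cpm in D1 and 419, 420.1 and 384 cpm in D1+ TGF-β (log2 fold change 2.08 ± 0.12, adjusted p = 8.85e-08). The core proteins BGN (biglycan) and VCAN (versican) rose from 58.5, 41.9 and 48.6 to 155, 157 and 165 cpm (log2 fold change 1.68 ± 0.12, adjusted p = 4.69e-07) and from 177, 302 and 154 to 722, 714 and 709 cpm (log2 fold change 1.76 ± 0.19, adjusted p = 2.76e-05). In VCAN the second D1 flask was the highest of the untreated group and was still less than the lowest treated flask. GPC1, a membrane-anchored heparan sulfate proteoglycan, fell by 0.63 (adjusted p = 0.00052), and DCN and LUM, which are small leucine-rich proteoglycans like BGN, were not called (-0.25 and 0.14). Without D1 replicate 2, DCN was called lower (-0.44, adjusted p = 0.00508 in edgeR) and LUM was not called (-0.15).

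Changes in genes of protein folding and export were small. Of 28 tested genes of the endoplasmic reticulum (ER) and its vesicles, 18 rose (15 without a composition factor) and none fell, all 28 log2 fold changes were above 0, and the median was 0.44. XBP1, a transcription factor of the unfolded protein response, was at 59.8, 67.6 and 65.1 cpm in the untreated and 103, 107 and 105 cpm in the treated flasks. HERPUD1, a component of ER-associated degradation, was at 53.1, 47.6 and 52.2 cpm in the D1 flasks and 92.1, 90.6 and 86.2 cpm in the D1+ TGF-β flasks. The treated flasks of both genes were tightly grouped and clear of the untreated ones, with log2 fold changes of 0.71 ± 0.08 and 0.82 ± 0.09 (adjusted p = 3.09e-05 and 3.9e-05). SEC24D, a coat protein of vesicles that leave the ER, rose by 0.61 ± 0.07 (adjusted p = 2.34e-05), and KDELR3, a retrieval receptor, by 0.56 ± 0.07 (adjusted p = 6.46e-05). Of the chaperones, which like IARS and the contractile genes printed below fall outside the rule for naming genes and were chosen after their promoters were searched, HSPA5, HSP90B1 and CANX rose by 0.69, 0.58 and 0.35 (adjusted p = 0.000235, 0.00037 and 0.00293), and CANX was not called without D1+ TGF-β replicate 2 or 3 (adjusted p up to 0.0177).

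Promoters were searched for the ER stress response element, CCAAT and CCACG separated by 9 bases of any kind, on either strand in the 250 bases before the RefSeq start (GRCh38.p14). It was found in 6 of the 25 list members with a promoter in the table (24.0%), against 0.14% of the 7838 tested genes with one and 1.09% of the called higher genes. The matches of 4 called members are shown because 6 of the 11 tested genes with the element belonged to this list; capitals mark the element, or its reverse complement in the second HSP90B1 window, and each sequence is read along the gene. CALR and CRELD2 held the element without being called (0.28 and 0.07). The windows are chr9:125241365-125241435 (minus strand) for HSPA5, chr12:103930190-103930260 and chr12:103930295-103930365 (plus strand) for HSP90B1, chr5:179698752-179698822 (plus strand) for CANX and chr22:28800577-28800647 (minus strand) for XBP1.
HSPA5: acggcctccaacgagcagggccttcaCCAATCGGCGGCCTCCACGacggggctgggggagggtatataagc
HSP90B1 window 1: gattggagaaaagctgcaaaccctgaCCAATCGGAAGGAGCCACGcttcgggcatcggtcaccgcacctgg
HSP90B1 window 2: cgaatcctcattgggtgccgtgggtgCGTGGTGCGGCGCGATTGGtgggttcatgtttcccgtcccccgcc
CANX: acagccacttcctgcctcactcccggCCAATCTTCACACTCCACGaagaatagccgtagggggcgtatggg
XBP1: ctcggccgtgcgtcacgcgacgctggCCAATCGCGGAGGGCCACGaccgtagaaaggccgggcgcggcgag

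Contractile genes were called in 1 direction at day 1. Of 23 tested genes of actin, myosin and stress fibres, 11 rose and none fell (median 0.35; 1 fell without a composition factor or without D1 replicate 2). TPM1, a tropomyosin that lines actin filaments (chr15:63334819-63364114, hg19), was at 339.9, 351 and 387 cpm in D1 and 1634, 1701 and 1411 cpm in D1+ TGF-β (log2 fold change 2.14 ± 0.09, adjusted p = 8.73e-09). ACTA2, the smooth muscle α-actin that marks myofibroblasts (chr10:90694831-90751096, hg19), was at 225, 123 and 191 cpm in the untreated and 748, 835 and 679.9 cpm in the treated flasks. Its lowest treated flask was about 3 times its highest untreated flask (log2 fold change 2.07 ± 0.17, adjusted p = 2.28e-06). TNS1 (tensin) and CALD1 (caldesmon) rose from 130.4, 121 and 109 to 287, 298 and 268 cpm (log2 fold change 1.25 ± 0.08, adjusted p = 3.16e-07) and from 732, 711 and 787 to 1809, 1975 and 1523 cpm (log2 fold change 1.25 ± 0.09, adjusted p = 7.64e-07). CNN1, FHL2, TAGLN and ACTG2 rose by 1.21 ± 0.11, 0.90 ± 0.11, 0.87 ± 0.13 and 0.82 ± 0.12 (adjusted p = 4.57e-06, 9.25e-05, 0.00042 and 0.000342). ACTN1 rose by 0.46 (adjusted p = 0.000272), and so did MYH9 (0.46) and CNN2 (0.38), whose calls were lost without D1+ TGF-β replicate 1 or 2 (MYH9 also without D1+ TGF-β replicate 3 or D1 replicate 3), at adjusted p up to 0.0246 and 0.0161. The kinase of myosin light chain, MYLK, was not called (-0.54, adjusted p = 0.0157), nor were TPM2, TPM3 and TPM4 (0.18, -0.02 and 0.30). Reads of ACTA2 and ACTG2 may be shared between these near-identical actins, and ACTA2 and TPM1 each overlap genes on the opposite strand.

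The CArG box, the site of serum response factor, was searched in the same windows and was present in 7 of 20 contractile genes (35.0%), against 1.05% of all tested genes with a promoter, 2.73% of those called higher and 0 of 489 called lower. The matches of 3 called genes are printed, with the box in capitals. FLNA, MYLK, TPM4 and ACTG1 also held a box and were not called (0.35, -0.54, 0.30 and 0.24), and ACTA2 and TPM1 were without one in this window. Each gene was searched at a single annotated start, so that boxes near other starts or farther upstream were not covered. The windows, all GRCh38.p14, are chr2:73892872-73892933 and chr2:73892909-73892970 (plus strand) for ACTG2, chr19:1026493-1026554 (plus strand) for CNN2 and chr2:105438579-105438640 (minus strand) for FHL2.
ACTG2 window 1: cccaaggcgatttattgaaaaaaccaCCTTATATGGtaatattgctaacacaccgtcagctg
ACTG2 window 2: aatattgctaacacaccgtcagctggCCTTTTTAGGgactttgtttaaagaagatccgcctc
CNN2: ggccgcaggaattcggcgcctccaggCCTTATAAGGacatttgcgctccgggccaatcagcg
FHL2: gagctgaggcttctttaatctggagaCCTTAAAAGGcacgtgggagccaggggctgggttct

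Integrins and focal adhesion genes had 7 of 22 higher and 0 lower (median 0.17, between 0.11 and 0.221 with other scaling or fewer D1 flasks). ITGB3, the β3 chain of the vitronectin receptor, was at 14.8, 22.8 and 11.1 cpm in the D1 flasks and 57.8, 65.9 and 61.2 cpm in the D1+ TGF-β flasks (log2 fold change 1.91 ± 0.20, adjusted p = 1.61e-05). ITGB1, the common β1 chain, was far more abundant and rose less, from 2271, 2485 and 2601 to 3884, 4063 and 3690.0 cpm (log2 fold change 0.66 ± 0.08, adjusted p = 4.12e-05). Both had every treated flask above every untreated one. The adaptors LIMS1 (PINCH) and FERMT2 (a kindlin) rose by 1.56 ± 0.12 and 0.92 ± 0.08 (adjusted p = 7.64e-07 and 5.94e-06), as did the α chain ITGA11 (1.05). Their partners in the adhesion complex, TLN1, VCL, PTK2 and ILK, were not called, with log2 fold changes of 0.03 to 0.15.

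In the list of cadherins and junction proteins 5 of 17 genes rose and 1 fell. CDH2 (N-cadherin, chr18:25512843-25757910, hg19) was at 29.6, 40.5 and 33.5 cpm in D1 and 175, 189.8 and 157 cpm in D1+ TGF-β (log2 fold change 2.33 ± 0.12, adjusted p = 5.54e-08), with no overlap of flasks. CDH6 and the desmosomal linker DSP rose by 1.24 ± 0.17 and 1.46 ± 0.25 (adjusted p = 0.000179 and 0.00102), and CDH11 by 0.76. PCDH18, a protocadherin, was the one to fall, from 267, 637 and 237 to 78.4, 80.9 and 82.6 cpm (log2 fold change -2.24 ± 0.34, adjusted p = 0.000337; -1.64 without D1 replicate 2).

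**Figure D3:**
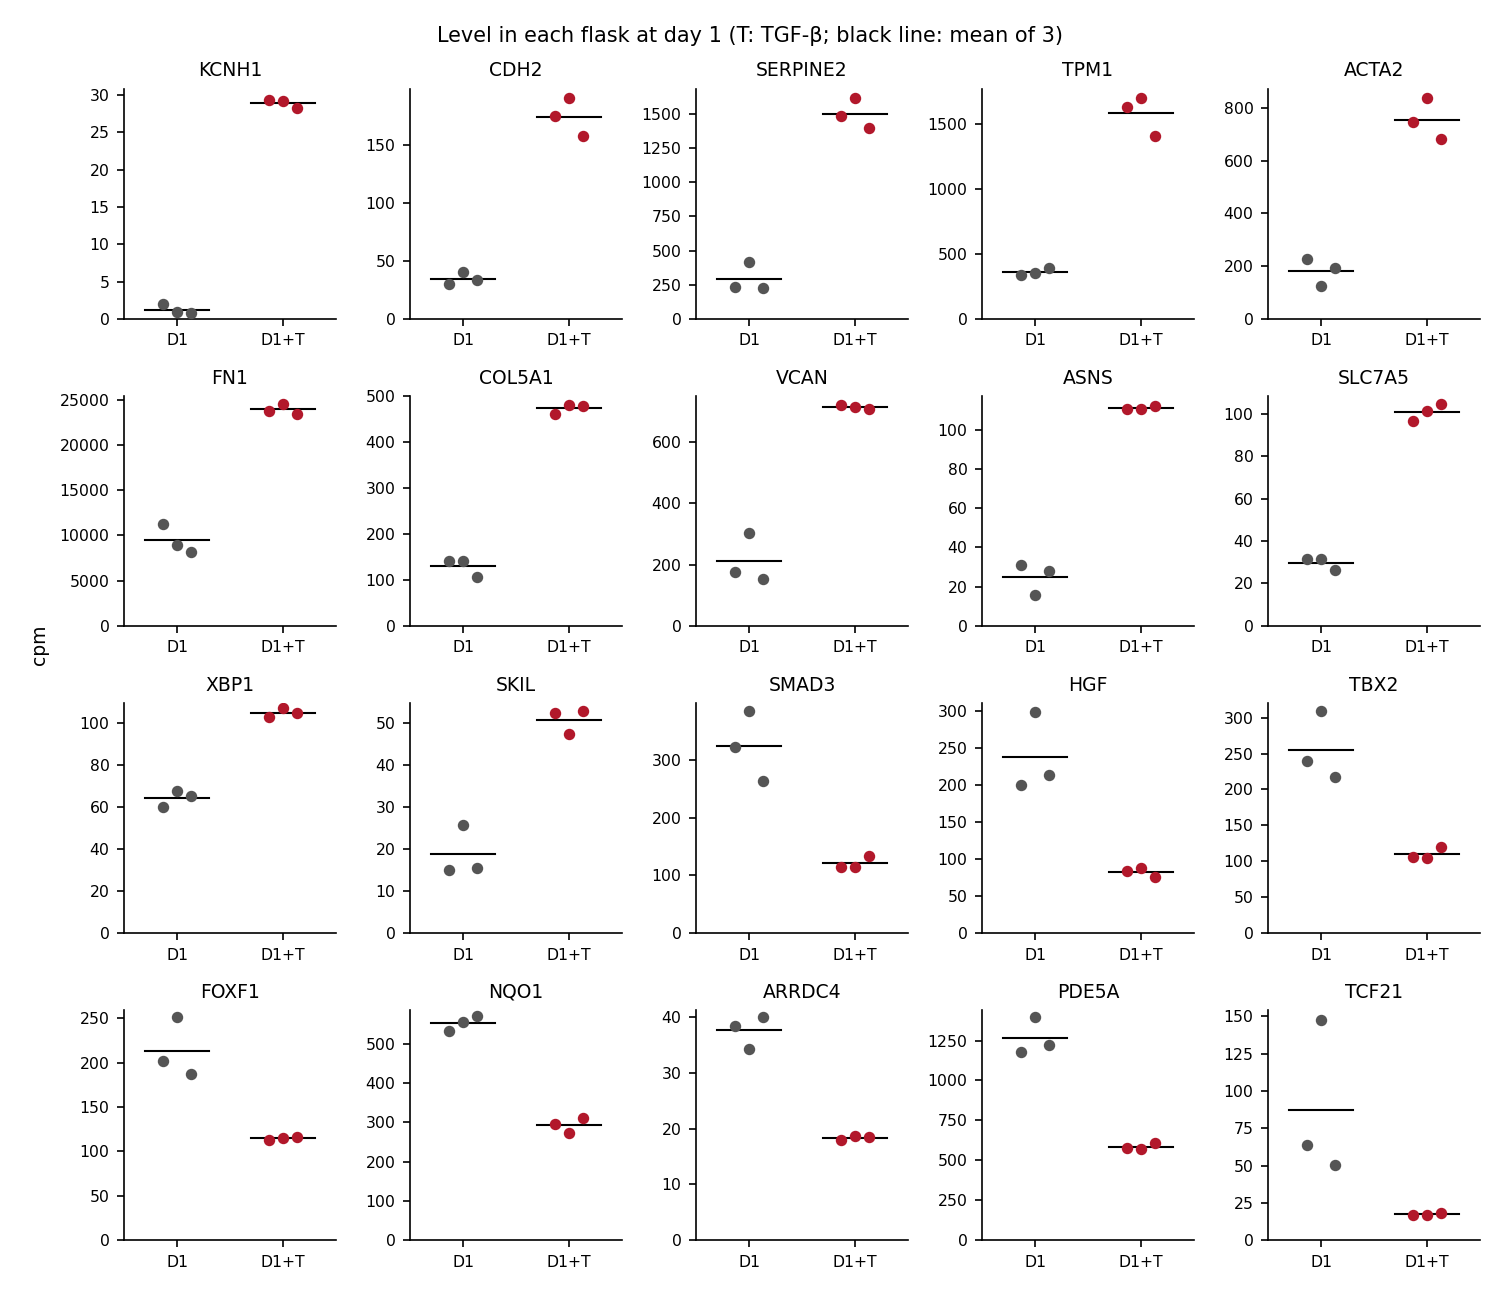
Levels of 20 genes in cpm (y axes, each starting at 0) in the 3 untreated flasks (D1, grey) and the 3 treated flasks (D1+T, red) at day 1, with a black line at the mean of each group. The groups are separate in each of the 20 genes, and D1 replicate 2, the middle grey point, stands apart in SERPINE2, TCF21 and VCAN.

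The list with the largest share of called genes was that of ATF4 targets, amino acid enzymes and tRNA synthetases, with 22 of 32 members higher, none lower and a median of 0.61. ATF4 is the transcription factor that adapts cells to a shortage of amino acids, and its own mRNA rose by 0.58 (adjusted p = 0.000484). ASNS, asparagine synthetase (chr7:97480989-97501854, hg19), was at 31.2, 15.6 and 28.2 cpm in the untreated and 110.5, 110.3 and 112 cpm in the treated flasks (log2 fold change 2.16 ± 0.23, adjusted p = 2.17e-05). SLC7A5, the transporter of large neutral amino acids, was at 31.5, 31.5 and 26.2 cpm in the D1 flasks and 96.7, 101 and 104 cpm in the D1+ TGF-β flasks (log2 fold change 1.76 ± 0.11, adjusted p = 1.42e-07). In both, every treated flask had more than 3 times the level of any untreated flask. Serine synthesis and its use for one-carbon units were represented by PSAT1, PHGDH, PSPH and SHMT2, which rose by 1.93, 1.04, 1.08 and 0.63, by MTHFD2 at 1.69 ± 0.14 (adjusted p = 2.28e-06) and by ALDH1L2 at 1.85 ± 0.17 (adjusted p = 6.23e-06). Both of these last are mitochondrial enzymes of folate metabolism. The synthetases GARS, EPRS, MARS, IARS and TARS rose by 0.56 to 0.86, whereas AARS, YARS, CARS and WARS were not called (0.44, 0.54, 0.24 and -0.07). DDIT4, an inhibitor of mTORC1, rose from 15.8, 11.4 and 13.6 to 30.3, 29.5 and 36.0 cpm (log2 fold change 1.23 ± 0.13, adjusted p = 1.82e-05), and TRIB3 by 1.04. Other targets of the same factor, CHAC1, SLC7A11 and DDIT3, were not called (-0.78, -0.25 and 0.73, adjusted p = 0.0661, 0.103 and 0.0228), and CHAC1 was at -0.14 without D1 replicate 2.

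The 8 letters TGATGNAA of the amino acid response element were found in the promoters of 4 of 26 list members (15.4%), against 1.22% of all tested genes with a promoter, 3.27% of those called higher and 1.23% of those called lower. The longer form TGATGNAAT was in none of the 26. Of the 4 genes, ASNS and IARS were called and are printed with the letters or their reverse complement in capitals, while CHAC1 and AARS were not called. The windows are chr7:97872443-97872502 for ASNS and chr9:92293698-92293736 for IARS (GRCh38.p14, both on the minus strand).
ASNS: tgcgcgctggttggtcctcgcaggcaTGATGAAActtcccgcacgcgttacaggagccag
IARS: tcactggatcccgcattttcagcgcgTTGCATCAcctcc

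Components of the TGF-β pathway itself changed in both directions. Of 14 SMADs and feedback inhibitors, 4 rose and 2 fell (median 0.15; 6 and 2 without D1 replicate 2, median 0.27). SKIL, a nuclear repressor of SMADs, was at 15.0, 25.8 and 15.4 cpm in D1 and 52.3, 47.3 and 52.7 cpm in D1+ TGF-β (log2 fold change 1.42 ± 0.16, adjusted p = 3.09e-05). PMEPA1, which sequesters SMADs at the membrane, rose by 1.26 ± 0.21 (adjusted p = 0.000814), and the ubiquitin ligases SMURF1 and SMURF2 by 0.40 and 0.55 (adjusted p = 0.00319 and 0.00185). Neither ligase was called without D1+ TGF-β replicate 2, nor SMURF1 without D1 replicate 3 or D1+ TGF-β replicate 3 (adjusted p up to 0.023 and 0.0127). SMAD3, the signal transducer, fell from 323, 385 and 263 to 114, 115 and 133 cpm, with every treated flask below every untreated one (log2 fold change -1.43 ± 0.17, adjusted p = 4.7e-05). NEDD4L, another ubiquitin ligase of the pathway, fell by 0.90 (adjusted p = 0.000142). SMAD2, SMAD4 and the inhibitor SMAD7 were not called (0.24, 0.18 and 0.49, adjusted p = 0.0105, 0.153 and 0.255), but without D1 replicate 2 SMAD7 was called higher (1.18, adjusted p = 0.000353).

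Of 12 ligands, receptors and latency proteins, 2 rose and 1 fell (5 and 1 without D1 replicate 2). TGFBI, a matrix protein named for its induction by TGF-β, was at 1646, 1807 and 1254 cpm in the untreated and 3798, 3864 and 3855 cpm in the treated flasks (log2 fold change 1.29 ± 0.13, adjusted p = 1.82e-05). LTBP2, a matrix protein of the latent TGF-β binding family, was at 375, 272 and 299 cpm in the D1 flasks and 1084, 1082 and 1118 cpm in the D1+ TGF-β flasks (log2 fold change 1.80 ± 0.11, adjusted p = 1.35e-07). Treated and untreated flasks were well apart in both. The co-receptor TGFBR3 (betaglycan) fell from 34.2, 26.5 and 35.5 to 20.6, 18.3 and 17.3 cpm (log2 fold change -0.77 ± 0.12, adjusted p = 0.00038). TGFB1, TGFBR1 and TGFBR2 had log2 fold changes of 0.64, 0.41 and -0.02 and were not called (adjusted p = 0.0154, 0.0816 and 0.874). Without D1 replicate 2, TGFB1 and TGFBR1 were called higher (0.97 and 0.73, adjusted p = 2.17e-05 and 4.45e-05).

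In the related BMP and activin list, 4 of 13 genes rose and 1 fell. FST and FSTL3, which trap activin, rose from 69.5, 63.8 and 80.1 to 172, 174 and 155 cpm (log2 fold change 1.23 ± 0.10, adjusted p = 2.71e-06) and from 20.6, 28.1 and 19.6 to 54.9, 55.6 and 55.5 cpm (log2 fold change 1.28 ± 0.12, adjusted p = 8.38e-06). The receptor ACVR1 rose by 0.41 ± 0.07 (adjusted p = 0.00133). BMP2 was at 27.9, 81.6 and 25.3 cpm in D1 and 11.7, 13.3 and 10.1 cpm in D1+ TGF-β (log2 fold change -1.93 ± 0.41, adjusted p = 0.00396), with D1 replicate 2 the high value; it fell by 1.15 without that flask and was not called without any one D1+ TGF-β library (adjusted p up to 0.019) or in limma-voom on 12 libraries (0.0144). ID1 and ID3, known targets of BMP, were at 16.0, 61.0 and 16.0 and 11.7, 86.0 and 12.4 cpm in D1 and 10.1, 9.81 and 13.2 and 10.3, 9.92 and 14.1 cpm in D1+ TGF-β. Their log2 fold changes of -1.53 and -1.73 were not called (adjusted p = 0.035 and 0.0685) and became -0.55 and -0.09 without D1 replicate 2.

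Matrix proteases and their inhibitors had 8 of 20 higher and 2 lower (median 0.12). SERPINE2 (protease nexin), a secreted inhibitor of serine proteases, was at 231, 417 and 227 cpm in the untreated and 1488, 1615 and 1401 cpm in the treated flasks (log2 fold change 2.36 ± 0.19, adjusted p = 2.27e-06). PLAT, a plasminogen activator, was at 442, 1552 and 356 cpm in the D1 flasks and 125, 121 and 145 cpm in the D1+ TGF-β flasks. Every treated flask of PLAT lay below every untreated one, but D1 replicate 2 was far above the other two: the log2 fold change of -2.59 ± 0.46 (adjusted p = 0.00125) was -1.61 without it, and the adjusted p was 0.0106 without D1+ TGF-β replicate 2. The other activator, PLAU, was not called (-0.62, adjusted p = 0.0588), and its receptor PLAUR rose by 0.64. ADAM12, a membrane metalloprotease, rose from 15.7, 24.5 and 14.6 to 77.7, 84.3 and 66.5 cpm (log2 fold change 2.05 ± 0.18, adjusted p = 4.82e-06), and TIMP3 from 403, 506 and 368 to 1156, 1428 and 972 cpm (log2 fold change 1.48 ± 0.15, adjusted p = 1.62e-05). ADAM19 and MMP14 rose by 1.93 and 0.52, and MMP1, MMP3, TIMP1 and TIMP2 were not called (-0.44, -1.49, 0.14 and -0.03; MMP1 and MMP3 -0.17 and -0.13 without D1 replicate 2).

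Growth factors and their receptors were mixed, with 5 of 26 higher and 7 lower (10 and 6 without D1 replicate 2). HGF, a ligand that fibroblasts present to epithelium, was at 199, 299 and 213 cpm in D1 and 84.2, 88.0 and 75.3 cpm in D1+ TGF-β (log2 fold change -1.52 ± 0.16, adjusted p = 1.57e-05), while its receptor MET rose by 0.93. PDGFC and VEGFC rose by 0.91 ± 0.08 and 0.65 ± 0.08 (adjusted p = 4.97e-06 and 5.4e-05), and FGF1 by 1.08. The receptor PDGFRA and the ligand KITLG fell by 0.68 and 0.59. The carriers of insulin-like growth factors parted: against the rise of IGFBP3, IGFBP5 fell from 1156, 795 and 871 to 431, 452 and 506 cpm (log2 fold change -1.02 ± 0.20, adjusted p = 0.00212, and 0.0143 at most without D1 replicate 1 or D1+ TGF-β replicate 1 or 2) and IGFBP6 by 0.64.

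Wnt genes had 4 of 14 members higher and 1 lower (median 0.18). FZD8, a receptor, was at 3.71, 2.42 and 3.09 cpm in the untreated and 16.1, 18.9 and 17.7 cpm in the treated flasks (log2 fold change 2.54 ± 0.15, adjusted p = 8.98e-08). WNT5A, a ligand of the β-catenin independent branch, rose from 169, 329 and 179.8 to 514, 548 and 517 cpm (log2 fold change 1.22 ± 0.21, adjusted p = 0.00107). The inhibitor DKK1 rose by 0.89 ± 0.15 (adjusted p = 0.00087) and the decoy receptor SFRP1 fell from 2687, 2311 and 2674 to 1556, 1548 and 1777 cpm (log2 fold change -0.65 ± 0.09, adjusted p = 0.000253), so that secreted Wnt inhibitors changed in opposite directions. Of only 5 Notch genes tested, the ligands DLL4 and JAG1 fell and none rose. DLL4 was at 23.5, 92.8 and 17.7 cpm in the D1 flasks and 6.85, 5.52 and 6.17 cpm in the D1+ TGF-β flasks (log2 fold change -2.90 ± 0.58, adjusted p = 0.00275); it fell by 1.75 without D1 replicate 2 and was not called without any one D1+ TGF-β library (adjusted p up to 0.0222) or in limma-voom on 12 libraries (0.0158). JAG1 fell by 0.93 (adjusted p = 0.00162, and 0.0156 without D1+ TGF-β replicate 2), and its log2 fold change was -0.66 without D1 replicate 2.

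Axon guidance and potassium channel genes, of which 8 of 21 rose and 3 fell (median 0.45, 0.343 without D1 replicate 2), included several semaphorins. SEMA7A, a membrane-anchored semaphorin that binds β1 integrins, was at 34.7, 28.3 and 35.3 cpm in D1 and 195, 199.8 and 175 cpm in D1+ TGF-β (log2 fold change 2.54 ± 0.15, adjusted p = 1.41e-07). SEMA3C and SEMA5A rose by 1.52 ± 0.15 and 1.27 ± 0.08 (adjusted p = 1.39e-05 and 2.8e-07), and SEMA3F fell by 0.72. EPHB2 rose by 0.74 ± 0.08 (adjusted p = 1.61e-05), as did its ligand EFNB2 (0.93), the receptors UNC5B and NRP2 (1.36 and 0.71) and the channel subunit KCNG1 (1.85), whereas EFNB1 and NTN4 fell by 0.78 and 1.19.

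Several transcription factors of the lung mesenchyme fell. Of 11 tested, 6 fell and none rose, with a median of -0.85 (-0.73 without D1 replicate 2). TBX2 was at 239, 309.9 and 217 cpm in the untreated and 106, 105 and 121 cpm in the treated flasks (log2 fold change -1.21 ± 0.14, adjusted p = 5.25e-05). FOXF1, a forkhead factor needed for lung mesenchyme, was at 202, 252 and 187 cpm in the D1 flasks and 113, 115 and 116 cpm in the D1+ TGF-β flasks (log2 fold change -0.90 ± 0.12, adjusted p = 0.000101). In both, every treated flask was below every untreated flask. TBX5, FOXF2 and HOXA5 fell by 0.88, 0.85 and 0.90 (adjusted p = 0.00035, 0.000142 and 0.00277), and HOXA5 was not called without D1+ TGF-β replicate 1 or 2 (adjusted p up to 0.0182). TCF21, a helix-loop-helix factor of lipofibroblasts, was at 63.6, 147 and 50.6 cpm in D1 and 16.8, 16.9 and 18.0 cpm in D1+ TGF-β, with D1 replicate 2 high (log2 fold change -2.35 ± 0.45, adjusted p = 0.00187; -1.72 without that flask); it was not called without D1+ TGF-β replicate 1 or 2 (adjusted p = 0.0108 and 0.0143). By contrast, of 14 factors linked to mesenchymal transition and myofibroblasts only RUNX1 and GLI2 were called, rising by 0.82 ± 0.13 and 0.77 ± 0.13 (adjusted p = 0.000566 and 0.000883). SNAI2, TWIST1, ZEB1, ZEB2 and SRF had log2 fold changes of -0.12 to 0.27 and were not called.

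In the glycolysis and glucose-sensing list the calls were few, with 1 of 24 higher and 3 lower (5 lower without D1 replicate 2). TXNIP and its paralog ARRDC4, the sensors of the list, fell together: ARRDC4 was at 38.4, 34.3 and 40.1 cpm in the untreated and 17.9, 18.6 and 18.4 cpm in the treated flasks (log2 fold change -1.03 ± 0.10, adjusted p = 1.12e-05). Of the enzymes, PDK1 fell by 0.69 (adjusted p = 0.00453) and PFKP rose by 0.33 ± 0.07 (adjusted p = 0.00411), neither of them without D1+ TGF-β replicate 1 or 3 (PFKP also without D1+ TGF-β replicate 2 and PDK1 also without D1 replicate 3; adjusted p up to 0.0231 and 0.0224), and PFKP was not called without a composition factor (0.0134). GAPDH was at 4234, 3942 and 4369 cpm in the D1 flasks and 3548, 3447 and 3511 cpm in the D1+ TGF-β flasks (log2 fold change -0.26 ± 0.08, adjusted p = 0.024), its groups apart but not called. VIM, another gene used as a reference, was at 7104, 6199 and 7409 cpm in D1 and 7168, 7249.8 and 6973 cpm in D1+ TGF-β, with overlapping groups and a log2 fold change of 0.05 ± 0.11. The carbohydrate response element, CACGNG repeated after 5 bases of any kind, was found in 0.128% of tested promoters. Its share was 0.545% among genes called higher and 0.204% among those called lower. Within the list it was found in the promoter of TXNIP alone, shown here in capitals (chr1:145996625-145996693, minus strand, GRCh38.p14).
TXNIP: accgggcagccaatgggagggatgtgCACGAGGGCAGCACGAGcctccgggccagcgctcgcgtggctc

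Of 23 tested genes of antioxidant defence, 7 were called lower and 1 higher (median -0.31, 11 lower without a composition factor or without D1 replicate 2). TXNRD1, thioredoxin reductase, was at 1067, 1192 and 1071 cpm in the untreated and 660.3, 649 and 718 cpm in the treated flasks (log2 fold change -0.72 ± 0.07, adjusted p = 1.77e-05). NQO1, a quinone reductase, was at 532, 556 and 571 cpm in the D1 flasks and 297, 274 and 310.3 cpm in the D1+ TGF-β flasks (log2 fold change -0.91 ± 0.12, adjusted p = 0.000121). The groups of both were clearly separate. Catalase (CAT) and glutathione reductase (GSR) fell by 0.63 and 0.62 (adjusted p = 4.07e-05 and 9.68e-05), as did TXN (-0.46), and GPX8, an ER peroxidase, rose by 0.41. HMOX1, GCLM and GCLC were not called (-0.45, -0.04 and 0.15; HMOX1 -0.23 without D1 replicate 2). The antioxidant response element (TGAC and GCA separated by 3 bases of any kind, on either strand) stood in 1.82% of the promoters of called higher genes, 2.86% of those called lower and 2.26% of all tested, and AP-1 sites (TGACTCA) in 3.64%, 3.89% and 2.26%. The SMAD-binding CAGA box (AGCCAGACA) was found in 0.182%, 0.409% and 0.179%.

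Interferon-stimulated and antigen presentation genes had 6 of 21 lower and 0 higher (median -0.33, 9 lower without a composition factor). IFIT1 was at 11.9, 9.60 and 9.87 cpm in D1 and 3.48, 2.68 and 3.84 cpm in D1+ TGF-β (log2 fold change -1.70 ± 0.27, adjusted p = 0.000473), and the proteasome subunit PSMB8 at 31.8, 32.6 and 28.8 cpm in the untreated and 18.4, 17.9 and 19.9 cpm in the treated flasks (log2 fold change -0.74 ± 0.08, adjusted p = 2.3e-05). No flask of one group reached the other in either gene. IFITM2 and HLA-E fell by 0.65 and 0.49 (adjusted p = 0.000123 and 0.000565), and IFIT3 by 0.77. Reads of IFITM and HLA genes may be shared with their close relatives. Of 9 inflammatory genes tested only TSLP was called, falling by 0.70 (adjusted p = 0.00767). That call was lost when any one of 9 libraries was left out, namely D1 replicate 1 or 3, any D1+ TGF-β or D20 library, or D20+ TGF-β replicate 1 (adjusted p up to 0.0369). None of 8 complement and secretory inhibitor genes was called (median -0.27).

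Receptors of contractile agonists and prostanoids had 2 of 14 higher and 3 lower (median -0.20, -0.05 without D1 replicate 2). F2RL1, a receptor cleaved by proteases, was at 8.27, 11.5 and 10.3 cpm in the D1 flasks and 36.6, 35.0 and 35.6 cpm in the D1+ TGF-β flasks (log2 fold change 1.82 ± 0.10, adjusted p = 8.85e-08). The prostaglandin E receptors parted. PTGER4 rose by 1.38 ± 0.27 (adjusted p = 0.00216, and 0.0192 without D1+ TGF-β replicate 2), whereas PTGER2 fell by 0.70 (adjusted p = 0.00525, and up to 0.0298 without D1 replicate 2 or 3 or D1+ TGF-β replicate 1 or 2). HRH1, a histamine receptor, fell by 0.95 (adjusted p = 0.000805). PDE5A, which degrades cyclic GMP, was among the most abundant genes to fall, at 1179.7, 1397 and 1222 cpm in D1 and 575, 571 and 610.4 cpm in D1+ TGF-β (log2 fold change -1.11 ± 0.10, adjusted p = 5.28e-06).

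Few proliferation genes were called at day 1. Of 36 cell cycle genes 2 fell and 0 rose (median -0.06), namely TYMS by 0.48 (adjusted p = 0.00131, and 0.011 without D1+ TGF-β replicate 2) and KIF20A by 0.68 (adjusted p = 0.00557, and up to 0.0382 without D1 replicate 2 or D1+ TGF-β replicate 1 or 2). MKI67 had a log2 fold change of -0.03 and CCNB1 of -0.49, neither called. The CDK inhibitor CDKN2B, known to be induced by TGF-β, rose from 18.9, 18.5 and 19.5 to 38.2, 36.4 and 49.4 cpm (log2 fold change 1.12 ± 0.16, adjusted p = 0.000209), and CDK6 from 116, 184 and 133 to 279, 307 and 246 cpm (log2 fold change 0.94 ± 0.13, adjusted p = 0.000228). CDKN1A was not called (-0.27). Of 29 cholesterol and fatty acid genes 1 rose and 1 fell, with a median of 0.14 that turned to -0.09 without D1 replicate 2, where 3 rose and 3 fell. SREBF1 fell by 0.60 (adjusted p = 0.000182). None of 30 ribosomal protein genes was called (median -0.09), whereas 6 were called lower without D1 replicate 2 (median -0.18). Of 22 ribosome biogenesis genes, 2, GNL3 and DDX21, were called higher by 0.36 and 0.36 (adjusted p = 0.00775 and 0.00811), neither of them without a composition factor (0.0188 and 0.0251) or without several single libraries, among them D1+ TGF-β replicates 1 and 2 (up to 0.0551 and 0.044). Of 14 AP-1 and immediate early genes, DUSP6, a phosphatase of ERK, was the one called, falling by 0.42 (adjusted p = 0.000655); 4 fell without D1 replicate 2. Among the most abundant genes, AHNAK fell from 3329, 3061 and 2683 to 2203, 2106 and 2242 cpm (log2 fold change -0.47 ± 0.11, adjusted p = 0.00913), a call that was lost when any one of 9 libraries was left out (up to 0.0476) and that held without D1 replicate 3 or D20+ TGF-β replicate 1 or 3.

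The filter of 10 cpm in 6 of the 12 libraries left out genes that reached that level in fewer libraries, among them some nearly silent in untreated cells. In a wider set, with at least 1 cpm in 3 libraries, 4078 genes lay under the filter, of which 270 (6.62%) were called, 142 higher (3.48%) and 128 lower (3.14%). Over all 13568 genes of the wider set 1505 (11.1%) were called. Genes that entered the set only through the group where they were high had to differ. Their counts, calls and adjusted p are therefore a description. ELN, which encodes tropoelastin (chr7:73442119-73484237, hg19), had 6, 32 and 4 counts in the D1 libraries and 470, 1146 and 372 in the treated ones, or 0.509, 2.09 and 0.340 cpm in the untreated and 55.2, 64.7 and 43.9 cpm in the treated flasks. It showed the largest rise of the set (log2 fold change 5.67 ± 0.37, adjusted p = 1.22e-07; 6.98 without D1 replicate 2). NOX4, an NADPH oxidase that makes hydrogen peroxide, was at 1.61, 2.29 and 1.19 cpm in the D1 flasks and 23.0, 23.8 and 21.7 cpm in the D1+ TGF-β flasks (log2 fold change 3.71 ± 0.18, adjusted p = 9.34e-09). HAS2, a hyaluronan synthase, was at 3.65, 3.73 and 5.43 cpm in D1 and 25.5, 29.1 and 20.8 cpm in D1+ TGF-β (log2 fold change 2.57 ± 0.19, adjusted p = 4.09e-07). In these genes the lowest treated flask had over 3 times the level of the highest untreated one. EDN1, the precursor of the constrictor endothelin, rose from 5.09, 3.34 and 7.64 to 33.7, 32.5 and 25.7 cpm (log2 fold change 2.54 ± 0.20, adjusted p = 1.01e-06), and the matrix protease ADAMTS6 from 3.82, 1.83 and 5.94 to 28.7, 31.4 and 25.4 cpm (log2 fold change 2.93 ± 0.34, adjusted p = 3.2e-05). TNFAIP6, a hyaluronan-binding protein, COL10A1, PCDH9, ERN1 and CTH rose by 2.56, 1.90, 1.51, 1.06 and 1.61. ERN1 is a sensor of the unfolded protein response and CTH makes cysteine.

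INHBE, an activin chain, rose from 0.424, 0.262 and 0.340 to 6.58, 4.96 and 5.43 cpm (log2 fold change 4.02 ± 0.41, adjusted p = 1.12e-05). TYRP1, LONRF2 and HHIP, the last an inhibitor of hedgehog ligands, were close to silent in D1, with 5, 3 and 6 counts over the 3 untreated libraries against 97, 54 and 89 over the treated ones. The ratios of the summed counts, each over the summed library totals, were 20.7 (95% interval 8.55 to 65.0), 19.2 (6.22 to 95.8) and 15.8 (6.98 to 44.2), where the intervals cover counting error only. In the other direction, KCNF1, a modifier subunit of potassium channels, fell from 16.5, 29.9 and 15.8 to 2.47, 2.26 and 2.24 cpm (log2 fold change -3.17 ± 0.29, adjusted p = 3.9e-06). DACH1, a nuclear cofactor, fell from 3.82, 15.0 and 3.40 to 0.470, 0.508 and 1.06 cpm (log2 fold change -3.56 ± 0.62, adjusted p = 0.000933; -2.48 without D1 replicate 2, and adjusted p = 0.014 without D1+ TGF-β replicate 2). The orphan nuclear receptor NR4A2 was at 12.6, 34.4 and 11.1 cpm in the untreated and 1.29, 2.71 and 2.36 cpm in the treated flasks (log2 fold change -3.13 ± 0.67, adjusted p = 0.00409). NR4A2 was not called without D1 replicate 2 or any one D1+ TGF-β library (adjusted p up to 0.0235). The integrin chain ITGA8 fell by 2.00 (adjusted p = 0.00123, and at most 0.011, without D1+ TGF-β replicate 2). Its log2 fold change was -1.37 without D1 replicate 2. AFAP1L2 had 30 counts over the untreated and 1 over the treated libraries, a 28.2-fold lower level (95% interval 4.69 to 1149.4), SLC51B had 42 and 3, a 13.2-fold lower level (4.2 to 66.2), and the pseudogene SERPINB9P1 had 15 and 0, at least 4.7-fold lower against a floor of 3 counts over the group. These last 3 genes lost their calls without D1+ TGF-β replicate 2 (adjusted p = 0.0396, 0.019 and 0.0492), and AFAP1L2 and SERPINB9P1 did so without most other single libraries of D1, D1+ TGF-β and D20.

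**Figure D4:**
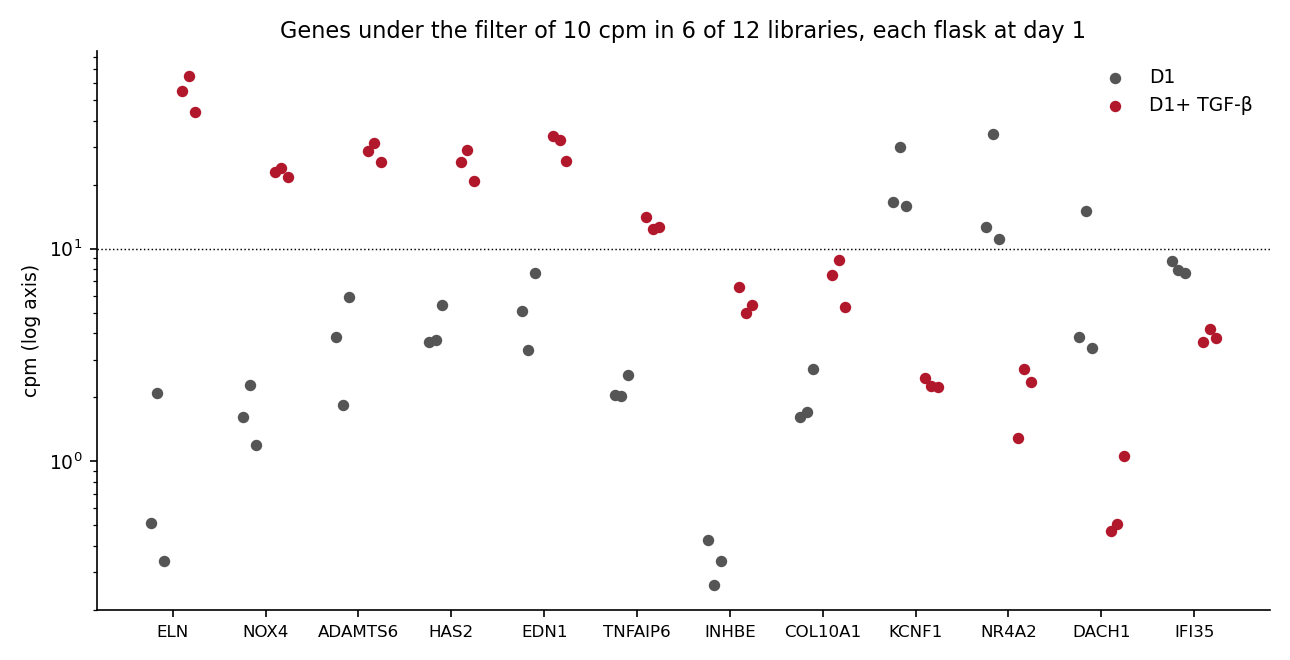
Levels in cpm on a log axis of 12 genes under the filter, in the 3 D1 flasks (grey) and the 3 D1+ TGF-β flasks (red). The dotted line marks 10 cpm. ELN, NOX4, ADAMTS6, HAS2, EDN1 and TNFAIP6 lie under the line in every untreated flask and above it in every treated flask, and KCNF1 and NR4A2 the other way round.

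The response at day 1 was then set beside that at day 20, which has its own untreated flasks. At day 20, 2609 genes (27.5%) were called, 1210 higher (12.8%) and 1399 lower (14.7%). Of the 654 genes that rose at day 1, 300 (45.9%) also rose at day 20, 48 (7.34%) fell and 306 were not called, so that they made up 24.8% of the genes that rose at day 20. Of the 617 that fell at day 1, 337 (54.6%) also fell, 20 (3.24%) rose and 260 were not called, or 24.1% of the genes that fell at day 20. Tested directly, the responses of the days differed for 985 of all genes (10.4%) and for 333 of the 1271 called at day 1. The day 1 values by which these genes were chosen also enter the difference, so that the shares are a description. All D20 flasks of a treatment had been seeded from 1 flask, so that effects of the founding flask and of the long treatment cannot be told apart.

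Contractile genes were among those that differed. Of 23 tested, 0 rose and 12 fell at day 20 (median -0.36), against 11 that rose and none that fell at day 1. TPM1 had a log2 fold change of -0.19 at day 20 and ACTA2 of 0.13, neither called, and the differences between the responses were -2.33 ± 0.13 and -1.94 ± 0.24 (adjusted p = 7.57e-07 and 0.000123). These values are of RNA. For the protein of ACTA2, the study saw no stained cells after 1 day of TGF-β. At day 20 it found more of the protein in treated than in untreated cells. CALD1 and CNN1 differed by -1.44 ± 0.13 and -1.65 ± 0.15 (adjusted p = 1.31e-05 and 1.33e-05), and CNN1, ACTG2, ACTN1, CNN2 and FHL2 were called lower at day 20 (-0.44, -0.47, -0.46, -0.56 and -0.50). ADAM12, TIMP3 and TGFBI likewise had changes at day 20 of -0.10, -0.13 and -0.05, none called, with differences of -2.15, -1.60 and -1.34 (adjusted p = 0.000138, 0.000219 and 0.000347). ITGB3, GBP1, an interferon-induced GTPase, and DMD (dystrophin) rose at day 1 by 1.91, 0.95 and 0.94 and fell at day 20 by 1.26, 1.72 and 1.48 (adjusted p of the difference 9.78e-06, 2.43e-06 and 5.8e-06). SMURF2 and PITPNM3 rose by 0.55 and 0.50 and then fell by 1.01 and 1.70 (adjusted p of the difference 1.79e-05 and 3.63e-06), although the day 1 call of PITPNM3 (adjusted p = 0.00656) was lost without D1 replicate 2, any one of the D1+ TGF-β or D20 libraries or D20+ TGF-β replicate 2 (up to 0.0382). It was lost in 15 of 24 alternatives in all, among them those with no composition factor (0.0117), with the 6 day 1 libraries alone (0.0301) and with thinned counts (0.0251).

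Most calls of the ATF4 and ER lists had the same direction at day 20. ATF4-related genes had 26 of 32 higher and 2 lower at day 20 (median 0.84), and ASNS had log2 fold changes of 2.16 and 2.23 (difference 0.06 ± 0.32, not called). ER genes had 17 of 28 higher and 2 lower (median 0.38), and XBP1 had log2 fold changes of 0.71 and 0.70 (difference 0.00 ± 0.11, not called). FN1 and COL1A1 rose at day 20 by 1.95 and 0.99, and their differences were not called (0.62 ± 0.18 and -0.10 ± 0.17, adjusted p = 0.0285 and 0.695). POSTN, THBS2 and BGN rose further, with 3.32, 2.64 and 2.53 at day 20 (adjusted p of the difference 0.0015, 0.000175 and 0.00311), and so did SPOCK1 and CDKN2B (3.45 and 2.42, adjusted p of the difference 0.000105 and 0.00131). TXNIP, ARRDC4 and the protease ADAMTS19 fell further, from -3.58, -1.03 and -1.28 to -5.27, -3.02 and -4.11 (adjusted p of the difference 0.000997, 2.43e-06 and 2.73e-05). NPTX1, RASL12 and the transporter SLC16A6 fell at day 1 by 2.47, 2.65 and 1.51 and were at -0.24, -0.73 and 0.71 at day 20 (adjusted p of the difference 1.87e-05, 0.00625 and 0.00439); the day 1 call of SLC16A6 was lost without D1 replicate 2 or any one D1+ TGF-β library (adjusted p up to 0.0273) and in limma-voom on 12 libraries (0.0159).

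Several lists had more calls at day 20 than at day 1, as had all genes tested (27.5% against 13.4%). Cell cycle genes went from 0 higher and 2 lower to 25 of 36 higher (median 1.17), cholesterol and fatty acid genes from 1 and 1 to 26 of 29 higher (median 1.04), and interferon-stimulated genes from 6 to 16 of 21 lower (median -0.61). KIF20A, a mitotic kinesin, fell by 0.68 at day 1 and rose by 1.29 at day 20 (difference 1.97 ± 0.23, adjusted p = 9.19e-05). SREBF1, a regulator of lipid synthesis, fell by 0.60 and rose by 0.62 (difference 1.22 ± 0.12, adjusted p = 1.87e-05). One D20+ TGF-β library, replicate 3, stood apart from its group, with 12 tested genes above and 78 below both other flasks by more than 2 times, of which 30 of the latter were called at day 1. Without it, 415 of 1499 genes called at day 1 differed between the days (27.7%), against 333 of 1271 with it (26.2%).

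**Figure D5:**
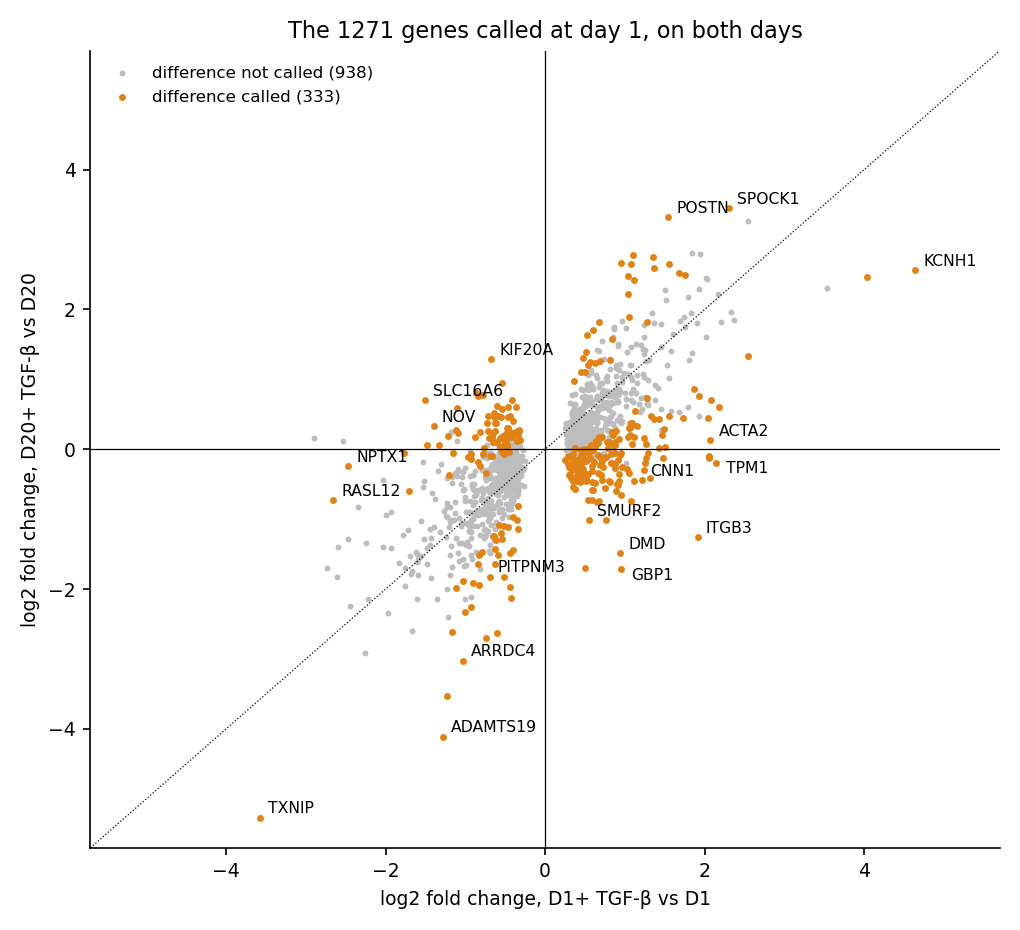
Each point is 1 of the 1271 genes called at day 1, with its log2 fold change at day 1 on the x axis and at day 20 on the y axis. Orange points are the 333 genes whose responses differed, grey points the other 938, and the dotted line marks equal changes; ACTA2, TPM1 and CNN1 lie near or under 0 on the y axis, and ITGB3, GBP1, DMD, SMURF2 and PITPNM3 in the lower right quadrant.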

How the data were processed

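RNA of 12 flasks of WI-38 cells was sequenced, and 6 libraries entered the day 1 comparison. Per the labels and the methods of the study, the authors made directional libraries, ran Trimmomatic on the reads and aligned them with Rsubread (genome build hg19). The counting program, annotation and use of strand are not given in the sources used here, so overlapping genes (ACTA2 with FAS, for example) and close copies may share reads. The authors deposited raw counts for 25702 genes in 48 lane columns, without normalization, and log2 cpm as written by voom for 9412 genes. The 4 lanes of a library were summed.

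Of 20434 genes with a count, the 9490 that reached 10 cpm in 6 or more of the 12 libraries were tested by quasi-likelihood in edgeR 4.0.16 (R 4.3.3). The model had a mean for each of 4 conditions and TMM normalization, p-values were adjusted by Benjamini-Hochberg, and calls are at 0.01. Levels are cpm scaled by those factors, the standard error divides the log2 fold change by the square root of F, and differences between days are D20 minus D1. The study calls the flasks biological replicates, and as flasks of 1 line their p-values measure the spread between flasks only. In simulated counts, 98% of changes of 1 and 99% of changes of 2 (log2) were recovered with 1 false call. These counts were independent draws at the fitted dispersions, with 200 of 9490 genes changed and no outlying flask. The real libraries differ in these settings, so that the shares do not carry over to them. Gene coordinates are from GENCODE on GRCh37, promoters from RefSeq on GRCh38.p14.

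Alternatives were DESeq2 1.42.0, limma-voom (limma 3.58.1) on libraries or lanes, limma on the deposited log2 values, other scaling and filters, the 6 day 1 libraries alone, thinned counts, replicate numbers as a block, and leaving out each library, which was added for the wider set after seeing the data. Members and lists were chosen with earlier results of these data known. Genes were named by rule: 10 tabulated by the study, the 12 largest called changes and the 6 largest changes in cpm per direction, up to 4 called members per list by p with members singled out as not called, 5 per class of difference between days and 5 per direction under the filter, with ACTA2, VIM and GAPDH as checks. Some of them are not reported here. All contractile genes called at day 1, ACTG2, CNN2 and FHL2 among them, were named in addition to that rule. HSPA5, HSP90B1, CANX and IARS also fall outside it. The promoters of HSPA5, HSP90B1, CANX, ACTG2, CNN2, FHL2 and IARS were chosen for printing after their matches were seen.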

Additional observations from a re-analysis of the deposited data

Results flagged for a closer look

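The response to TGF-β differed between the days for 333 of the 1271 genes called at day 1, tested as the D20 minus the D1 log2 fold change in edgeR at an adjusted p of 0.01. The day 1 values that chose these genes enter the difference.

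All 11 contractile genes called at day 1 were named, whereas only some called members of other lists were. The number of contractile genes among the named cases therefore follows from the naming and does not show enrichment. The responses of 10 of these 11 differed, each with a smaller or opposite change at day 20. MYH9 was the exception (difference -0.47, adjusted p = 0.0298 in edgeR). The difference was -2.33 for TPM1, -1.94 for ACTA2, -1.65 for CNN1, -1.44 for CALD1 and -1.40 for FHL2. It was -1.29 for ACTG2, -1.08 for TNS1, -0.94 for CNN2, -0.91 for ACTN1 and -0.81 for TAGLN. Adjusted p of these 10 genes lay between 7.57e-07 and 0.00842.

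ITGB3, GBP1, DMD, PITPNM3 and SMURF2 rose at day 1 and fell at day 20, with differences of -3.17, -2.67, -2.42, -2.19 and -1.56. ADGRA3, an adhesion receptor, fell at day 1 by 0.37 (adjusted p = 0.00134, and 0.0126 without D1+ TGF-β replicate 2) and rose at day 20 by 0.61 (difference 0.98). ADAMTS19 fell further (difference -2.83) and POSTN rose further (1.78). NPTX1, SLC16A6, KIF20A and RASL12 fell at day 1 and had differences of 2.23, 2.22, 1.97 and 1.92. Passage, time in culture and the founding flask of the D20 cells cannot be told apart from the length of treatment.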

How the results depend on the processing

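The counts of genes called at day 1 moved with the treatment of libraries more than with the tool. The 654 higher and 617 lower calls were 827 and 766 with DESeq2 and 670 and 549 with limma-voom on 12 libraries. With the 48 lanes taken as samples, which counts 1 RNA 4 times, they were 1981 and 1914, with 1995 shared in direction with day 20 (637 with libraries) and 1967 that differed between days (333). Lower calls were 931 without a composition factor and 350 with the 6 day 1 libraries alone, which have fewer samples to estimate the spread. Leaving out each library in turn gave 370 to 978 higher calls, 249 to 902 lower calls, 360 to 848 shared with day 20, 147 to 683 that differed between days and, among genes under the filter, 113 to 331 calls (270 with all libraries). The lowest of each came without D1+ TGF-β replicate 2, the most deeply sequenced day 1 library, and the highest of the first 4 without D1 replicate 2. The replicate numbers did not pair the flasks (correlations of deviations of -0.05, 0.03 and -0.22 for numbers 1 to 3), and a fit with the replicate block gave 577 higher and 495 lower calls, 553 shared and 275 that differed.

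Of 149 named genes called, 115 were called under every alternative run for them and 34 lost the call under at least 1, of which 33 did so without D1+ TGF-β replicate 2 and 15 only when a library was left out. No called gene changed direction. The values that did belong to VIM, which was not called: its log2 fold change of 0.05 became -0.015 without a composition factor and ranged from -0.017 (without D1 replicate 2) to 0.10 (without D1 replicate 3) when a library was left out. Among 190 called list members, 139 kept the call without each library in turn and 51 lost it at least once. For genes with few counts, such as SERPINB9P1 with 15 and 0, counting error limits the precision.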

Other observations

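Further genes under the filter were called at day 1. GLI1, the transcriptional target of hedgehog signaling, stood at 1.02, 0.589 and 0.764 cpm in the D1 flasks and 2.94, 2.93 and 2.24 cpm in the D1+ TGF-β flasks (log2 fold change 1.81 ± 0.35, adjusted p = 0.0022 in edgeR, and 0.0173 without D1+ TGF-β replicate 2), beside the called rises of its relative GLI2 and of the hedgehog inhibitor HHIP. At day 20 the log2 fold change of GLI1 was 4.62 (adjusted p = 1.53e-06). KCNK2, a background potassium channel, rose from 3.99, 2.35 and 4.16 to 9.75, 10.7 and 8.50 cpm (log2 fold change 1.50 ± 0.30, adjusted p = 0.00247, and 0.0193 without D1+ TGF-β replicate 2). IFI35, an interferon-induced protein, fell from 8.74, 7.91 and 7.64 to 3.64, 4.17 and 3.78 cpm, without overlap of flasks (log2 fold change -1.05 ± 0.12, adjusted p = 4.08e-05), and PSMB9, the partner of PSMB8 in the immunoproteasome, by 1.29 (adjusted p = 0.00341, and up to 0.0372 without D1 replicate 1 or D1+ TGF-β replicate 2). EGR2, an early growth response factor, had 0, 9 and 1 counts in D1 and 20, 23 and 23 in D1+ TGF-β (log2 fold change 2.92 ± 0.66, adjusted p = 0.00632), and its call was lost without D1 replicate 1 or 3, D1+ TGF-β replicate 1 or 3 or D20 replicate 2 (up to 0.0247). Without D1 replicate 2, which held 9 of its 10 untreated counts, the log2 fold change was 5.24.

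Genes under the filter also differed between the days, by the same test over the wider set. EDN1, which encodes the vasoconstrictor endothelin-1, had a log2 fold change of 2.54 at day 1 and -0.54 at day 20 (not called, adjusted p = 0.0902), a difference of -3.08 (adjusted p = 2.5e-05). COL10A1, a network-forming collagen, went from 1.90 to 5.18 (difference 3.28, adjusted p = 6.7e-05). GLI1 differed by 2.81 (adjusted p = 0.00746). For ELN, 5.67 at day 1 and 2.93 at day 20, NOX4, 3.71 and 2.70, and TNFAIP6, 2.56 and 4.75, the differences were not past the threshold (adjusted p = 0.0184, 0.0381 and 0.0183). These genes were set beside each other after their values were seen.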
